A study of Homo sapiens with 4 samples.

Results

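The genes described here are the IκB kinases and the kinases and scaffold that work beside them: CHUK (IKKα), IKBKB (IKKβ), IKBKG (NEMO, the regulatory subunit), IKBKE (IKKε), TBK1, the scaffold TANK, MAP3K8 (TPL2 or COT) and MAP3K14 (NIK). They were chosen by name, as all probes that the platform annotation assigns to 1 of these 8 symbols. The annotation gave 12 probes among the 48784 on the array, and 9 of them, covering all 8 genes, were detected on at least 1 of the 4 arrays, where detected means a detection p-value under 0.01. They were set beside 10128 genes that passed the same filter.

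Each array carried RNA from 1 culture of SW1353, an established human chondrosarcoma line used as a chondrocyte model. The conditions were IL-1α for 6 hours after TSA (IL1_TSA), IL-1α for 6 hours (IL1), TSA alone (Con_TSA) and control (Con). TSA was given at 250 ng/ml, and DMSO in its place to the cultures without TSA, from 1 hour before stimulation. TSA, or trichostatin A, inhibits the zinc-dependent histone deacetylases. The labels do not give the dose of IL-1α.

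There was 1 array for each condition, so the spread between cultures is unknown and conditions were not tested against each other. Here "higher" and "lower" mean a difference of at least 1.5-fold with the gene detected on the brighter array. Levels are log2 normalised intensities, and a level of 1 gene cannot be set against that of another because probes differ in brightness. The only error that could be measured was the disagreement between probes for the same gene, an SD per probe of 0.41 on the log2 scale at levels under 7 and 0.29 at levels of 9 to 11 in the comparison of IL1 with Con. This SD leaves out variation between cultures. The arrays hold RNA from whole cultures, so less RNA per cell and fewer expressing cells cannot be told apart. Between 26.8% and 28.8% of probes were detected on each array. Of 10 chondrocyte markers, SOX9, COL11A1 and HAPLN1 were detected on every array, whereas 7, including the cartilage matrix genes COL2A1, ACAN and COMP, were detected on none. Of the markers of other cell types, 2 of 6 for leukocytes and macrophages (CSF1R and CD68), 2 of 4 for endothelium (VWF and TEK) and 0 of 4 for epithelium were detected, and the same ones were detected on every array.

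IL-1 signals through its receptor, MYD88, IRAK kinases and TRAF6 to the canonical IKK complex, in which IKKα and IKKβ are the catalytic subunits and NEMO the ubiquitin-binding regulatory subunit. This complex phosphorylates IκBα, which is then degraded, and NF-κB enters the nucleus. It also phosphorylates the NF-κB precursor p105, encoded by NFKB1, which releases bound TPL2 (MAP3K8) to activate MEK and ERK. NIK (MAP3K14) activates IKKα in the noncanonical pathway, and TBK1 and IKKε, which bind the adaptor TANK, phosphorylate IRF3 in the interferon response.

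RefSeq promoter windows (GRCh38.p14) were held for 7 of the 8 genes, the exception being IKBKB, with 13 windows in all because MAP3K8, TANK and IKBKG have several annotated starts. The 250 bases before each start were searched on both strands for 3 motifs: the consensus κB site bound by NF-κB, the core of the interferon-stimulated response element (GAAA, any 2 bases, GAAA) and the AP-1 site TGANTCA. Over all 35116 windows, these were present in 9.96%, 3.02% and 6.57%. The stretches below are those of the most upstream start of MAP3K8, TANK and IKBKE, the genes that were higher with IL-1, and of CHUK, which stayed within 1.5-fold in every comparison. Each is written 5′ to 3′ on the gene's strand with motif matches in capitals.

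MAP3K8, chr10:30433771-30434020, plus strand: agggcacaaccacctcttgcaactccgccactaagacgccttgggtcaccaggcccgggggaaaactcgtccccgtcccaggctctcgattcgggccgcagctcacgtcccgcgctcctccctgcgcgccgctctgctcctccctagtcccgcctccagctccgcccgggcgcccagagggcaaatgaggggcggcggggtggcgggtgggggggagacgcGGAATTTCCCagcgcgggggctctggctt

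TANK, chr2:161136713-161136962, plus strand: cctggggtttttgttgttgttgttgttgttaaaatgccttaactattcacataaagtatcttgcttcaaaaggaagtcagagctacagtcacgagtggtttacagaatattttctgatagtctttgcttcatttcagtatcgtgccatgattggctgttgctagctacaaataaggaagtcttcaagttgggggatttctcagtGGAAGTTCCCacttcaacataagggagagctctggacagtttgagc

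IKBKE, chr1:206470226-206470475, plus strand: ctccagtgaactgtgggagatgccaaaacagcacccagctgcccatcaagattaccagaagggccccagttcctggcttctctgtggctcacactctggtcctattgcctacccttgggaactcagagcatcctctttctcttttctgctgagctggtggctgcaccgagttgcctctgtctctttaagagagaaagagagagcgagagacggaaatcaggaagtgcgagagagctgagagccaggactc

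CHUK, chr10:100229597-100229846, minus strand: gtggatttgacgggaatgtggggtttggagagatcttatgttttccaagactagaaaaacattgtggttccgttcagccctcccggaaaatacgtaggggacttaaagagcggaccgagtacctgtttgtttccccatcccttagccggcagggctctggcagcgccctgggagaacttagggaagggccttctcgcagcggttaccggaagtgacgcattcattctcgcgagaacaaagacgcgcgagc

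The stretch of MAP3K8 held a κB match 29 to 20 bases before the start, and that of TANK held one 46 to 37 bases before its first start. The matches read GGAATTTCCC in MAP3K8 and GGAAGTTCCC in TANK, and in both the consensus was read on the opposite strand. IKBKE, CHUK, TBK1 and MAP3K14 had no match to any of the 3 motifs in their windows. The other 2 starts of MAP3K8 lie downstream. The window of the second overlaps the first, holds the same κB match and has 1 response element core and 1 AP-1 match besides, while the third holds a different κB match, GGGGATTCCC. Of the 4 IKBKG windows, 1 had an AP-1 match, and the second TANK window had none. Matches to different motifs did not overlap. The arrays do not show which start was used or whether any factor was bound.

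The first comparison asked which of these genes respond to IL-1. MAP3K8, IKBKE and TANK were higher in IL1 than in Con and none of the 8 was lower, against 8.54% of all analysed genes higher and 7.93% lower. The members' median log2 difference was 0.37, against -0.10 over all genes. MAP3K8, the kinase that carries the signal from IKKβ to ERK, had the largest difference of the 8. Its single annotated probe had a raw intensity of 1480.9 in IL1_TSA, 1700.5 in IL1, 166.4 in Con_TSA and 150.3 in Con. Both IL-1 arrays were therefore far brighter than both arrays without IL-1. On the normalised log2 scale the level was 10.06 in IL1_TSA, 10.71 in IL1, 7.01 in Con_TSA and 6.29 in Con, and the probe was not detected in Con, where its detection p-value was 0.0158. MAP3K8 was at least 16.9-fold higher in IL1 than in Con, measured against the lowest level of a detected probe in Con, 6.63. The log2 difference was 4.42 as fitted and 1.90 with the authors' deposited values.

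**Figure D1:**
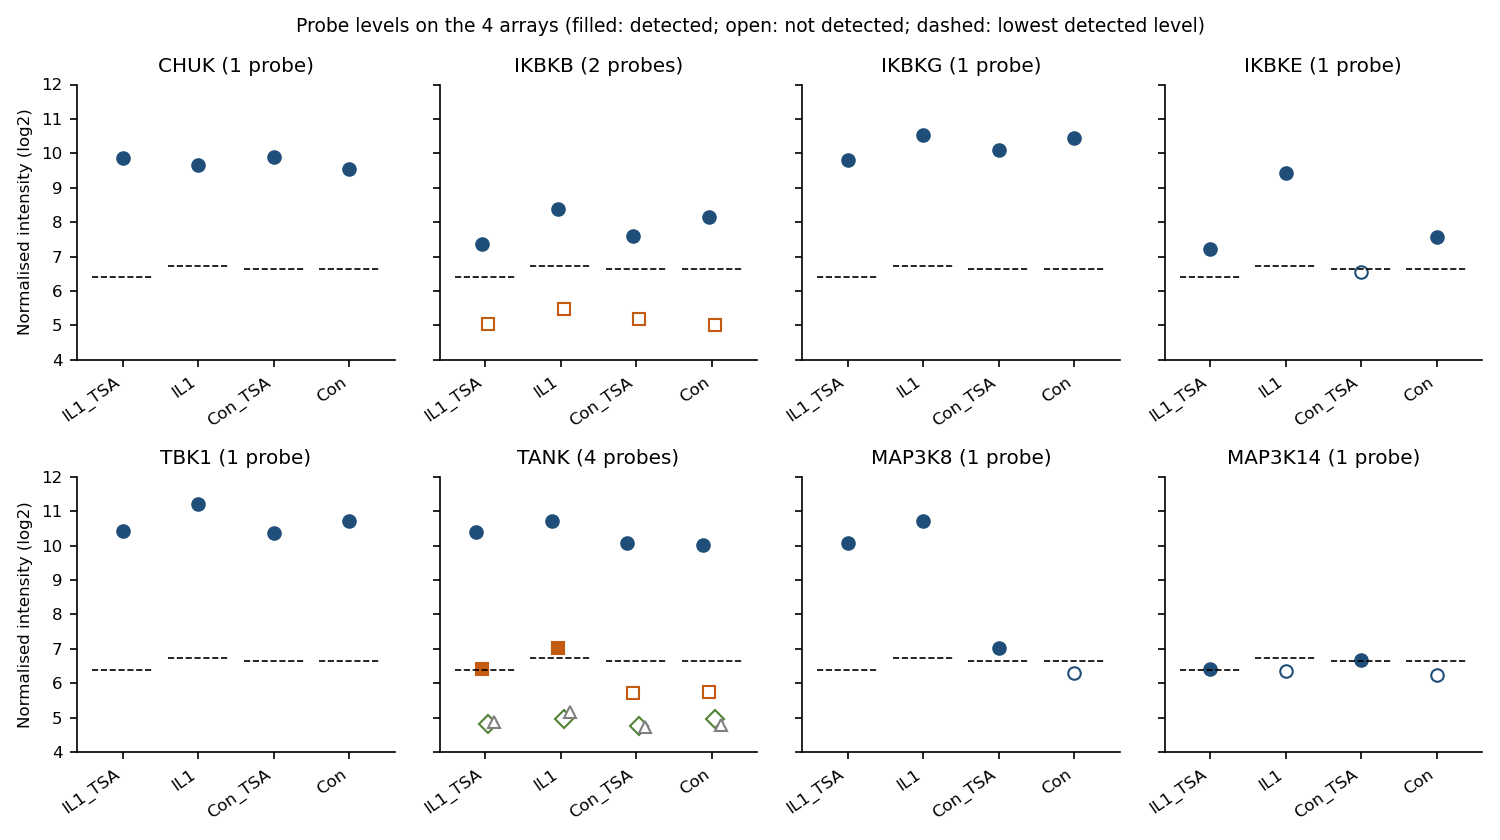
Normalised intensity (log2) of each of the 12 probes of the 8 genes on the 4 arrays, 1 panel per gene and 1 symbol shape per probe, with filled symbols where the probe was detected, open symbols where it was not, and a dashed line at the lowest level of a detected probe on that array. MAP3K8 is at 10.06 and 10.71 on the IL-1 arrays and at 7.01 and 6.29 without IL-1, IKBKE is highest in IL1 at 9.42, and CHUK spans 0.38.

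IKBKE, the inducible kinase of the TBK1 pair, was the second gene to be higher. Its level was 9.42 in IL1 and 7.56 in Con, with raw intensities of 722.3 in IL1 and 257.3 in Con, so that the gene was 3.62-fold higher. The log2 difference with the deposited values was 0.79. On the TSA arrays it was at 7.23 in IL1_TSA and 6.55 in Con_TSA, so IL1 stood above the other 3 arrays. The log2 difference of 1.86 compares with a probe SD of 0.31 at this level, and was the 93rd largest increase among 8684 genes detected on both arrays. TBK1, its constitutively expressed relative, had a level of 11.21 in IL1 and 10.72 in Con, a 1.40-fold difference that lay within the threshold. Over 6 alternative ways of processing its log2 difference was 0.41 to 0.53, also within the threshold.

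TANK, the scaffold that binds TRAF proteins, TBK1 and IKKε, passed the threshold less firmly. Its log2 difference was 0.99 as the mean of its 2 kept probes. Only the brighter of these was detected on both arrays, with levels of 10.70 in IL1 and 10.02 in Con, a 1.61-fold difference. The dimmer, at 7.02 in IL1 and 5.73 in Con, was not detected in Con and was at least 1.31-fold higher. With the undetected level raised to the lowest detected one, an alternative chosen after seeing the data, the mean difference was 0.54, or 1.45-fold, under the threshold. Both are annotated to transcript NM_004180. The other 2 TANK probes, annotated to NM_133484, were detected on none of the 4 arrays. With the authors' deposited values the mean difference of TANK was 0.33 on the log2 scale, under 1.5-fold.

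The subunits of the canonical complex were nearly level. CHUK was at 9.65 in IL1 and 9.53 in Con, a 1.09-fold difference. IKBKG was at 10.54 in IL1 and 10.46 in Con, a 1.06-fold difference, although its probe may also report a near-identical partial gene copy beside it, which was not tested. IKBKB was at 8.38 in IL1 and 8.13 in Con on its detected probe, a 1.19-fold difference, and its second probe was detected on no array. All 3 differences were smaller than the probe SD of 0.29 to 0.31. MAP3K14 was not detected in IL1 or Con, with detection p-values of 0.0145 in IL1 and 0.0171 in Con, and is given no fold.

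TSA was next examined in IL-1-treated cells, as IL1_TSA against IL1. IKBKE, IKBKB, TBK1, IKBKG and MAP3K8 were lower in IL1_TSA and none of the 8 was higher, against 18.2% of all genes lower and 21.2% higher. The members' median log2 difference was -0.70, against 0.02 over all genes. Before normalisation the IL1_TSA array was brighter, with a median raw intensity of 113.4, against 91.5 in IL1. Raw ratios of IL1_TSA to IL1 were 0.39 for IKBKE, 0.79 for IKBKB, 0.78 for TBK1, 0.83 for IKBKG and 0.87 for MAP3K8. All but that of IKBKE were past 1.5-fold only after normalisation. This comparison shares the IL1 array with the first, so a reading of IL1 that is too high raises the one and lowers the other. IKBKE was 4.56-fold lower, at 7.23 in IL1_TSA and 9.42 in IL1. Its log2 difference of -2.19 was the 102nd largest decrease among 8649 genes detected on both arrays, and it was -0.84 with the deposited values.

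TBK1 was 1.74-fold lower, at 10.41 in IL1_TSA and 11.21 in IL1. This call was made under all 6 alternatives, with log2 differences of -0.80 to -0.62. TBK1 has a single annotated probe, so only the deposited values, no background correction and median scaling could change its value. MAP3K8 was 1.57-fold lower, at 10.06 in IL1_TSA and 10.71 in IL1, and the difference was under 1.5-fold with the deposited values (-0.48) and with median scaling (-0.46). On this pair of arrays its log2 difference was -0.65, beside -2.19 for IKBKE, and how far they differ was not tested.

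Of the canonical subunits, IKBKB was 2.01-fold lower, at 7.38 in IL1_TSA and 8.38 in IL1, and IKBKG was 1.67-fold lower, at 9.79 in IL1_TSA and 10.54 in IL1. CHUK was not lower. Its level was 9.87 in IL1_TSA and 9.65 in IL1, a 1.16-fold difference in the other direction. IKBKB lay within 1.5-fold with the deposited values (-0.31), and IKBKG with both the deposited values (-0.51) and median scaling. TANK was at 8.40 in IL1_TSA and 8.86 in IL1 as the mean of its 2 kept probes, 1.38-fold apart. MAP3K14 was detected in IL1_TSA (p-value 0.00922) but not in IL1, at 6.41 in IL1_TSA and 6.36 in IL1, and is given no fold.

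**Figure D2:**
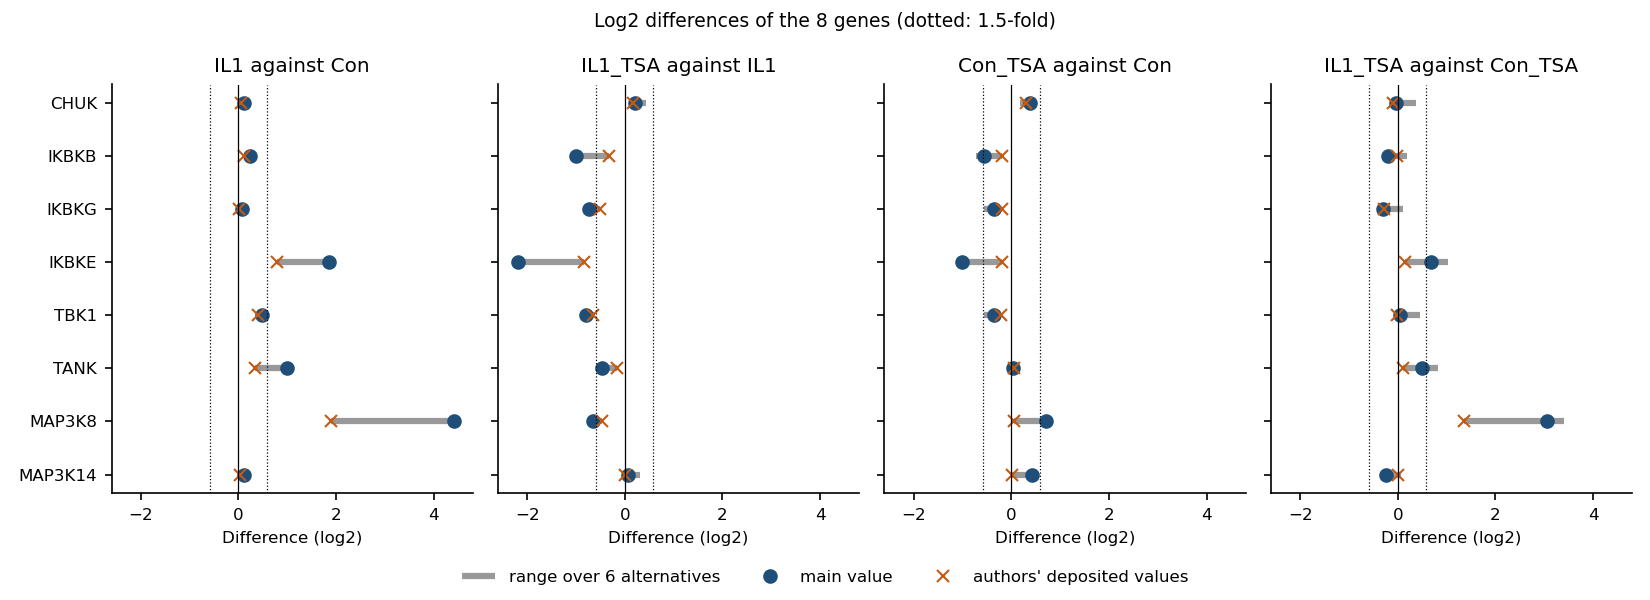
Log2 difference of each of the 8 genes in the 4 comparisons (1 panel each, first-named array minus the second), with the main value as a circle, the authors' deposited values as a cross, the range over 6 alternatives as a grey bar and dotted lines at 1.5-fold. The deposited values lie closer to 0 for MAP3K8 and IKBKE, for instance at 1.90 against 4.42 for MAP3K8 in IL1 against Con.

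Without IL-1, TSA was examined as Con_TSA against Con, which shares no array with the comparison of IL1_TSA with IL1. MAP3K8 was higher and IKBKE lower, against 16.3% of all genes higher and 16.4% lower, and the other 6 lay within 1.5-fold. IKBKE was not detected in Con_TSA, where its detection p-value was 0.0105, and was at least 1.92-fold lower there, with levels of 6.55 in Con_TSA and 7.56 in Con. MAP3K8 was detected in Con_TSA (p-value 0.00527) and not in Con, at 7.01 in Con_TSA and 6.29 in Con. It was at least 1.30-fold higher, a bound under the threshold, and its log2 difference was 0.71 as fitted. The difference was 0.06 with the deposited values, 0.56 with median scaling and 0.38 if no background was removed, so that 3 of the 6 alternatives lost this call. The other alternatives filter or choose probes and cannot change a gene with a single annotated probe. The call of IKBKE was also lost with the deposited values (-0.20).

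Among the genes within 1.5-fold, IKBKB was at 7.58 in Con_TSA and 8.13 in Con, a 1.47-fold decrease just inside the threshold that passed it with median scaling (-0.73). IKBKG and TBK1 were also below their Con levels, by 1.28-fold and 1.27-fold. CHUK was 1.30-fold above it, at 9.91 in Con_TSA and 9.53 in Con. IKBKB, IKBKG, TBK1 and IKBKE thus had negative differences with TSA both with and without IL-1, and CHUK had positive ones. The pairs of arrays do not overlap, but only 1 of these 5 genes passed the threshold in both. The share of all genes that kept their direction in both comparisons was not counted. Without IL-1, the decreases of IKBKB, IKBKG and TBK1 ranked 1390th, 2163rd and 2196th among 8686 genes detected on both arrays. The increase of CHUK ranked 2061st. TANK differed by 1.05-fold on its brighter probe, and the dimmer was detected in neither Con_TSA nor Con. MAP3K14 was detected in Con_TSA and not in Con, and was at least 1.02-fold higher. Its log2 differences with TSA were also positive, at 0.06 with IL-1 and 0.43 without, but it was not detected in IL1 or Con. With the deposited values they were -0.005 with IL-1 and 0.02 without.

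The response to IL-1 in TSA-treated cells was read from IL1_TSA and Con_TSA. MAP3K8 and IKBKE were higher and none was lower, against 4.2% of all genes higher and 2.75% lower. MAP3K8, now detected on both arrays, was 8.30-fold higher, at 10.06 in IL1_TSA and 7.01 in Con_TSA, with a log2 difference of 3.05. This was the 10th largest increase among 9036 genes detected on both arrays, and it was 1.36 with the deposited values. IKBKE was at least 1.52-fold higher, at 7.23 in IL1_TSA and 6.55 in Con_TSA, but its difference was 0.15 with the deposited values and under 1.5-fold without background correction as well. The brighter probe of TANK was at 10.39 in IL1_TSA and 10.09 in Con_TSA, a 1.24-fold difference, and its dimmer probe, not detected in Con_TSA, is given no fold. TBK1 differed by 1.03-fold.

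CHUK, IKBKB, IKBKG and MAP3K14 were below their Con_TSA levels in IL1_TSA by 1.03-fold to 1.24-fold. These 4 genes and TBK1 had log2 differences of -0.31 to 0.04. With median scaling the median of all genes was 0.35 in this comparison and the differences of CHUK, IKBKB, IKBKG and MAP3K14 turned positive, at 0.38, 0.18, 0.10 and 0.07, above that median for CHUK and below it for the others. Their direction in this comparison therefore depends on the scaling.

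The IL-1 difference with TSA was also set against the one without it, gene by gene. The difference with TSA minus that without was -1.36 on the log2 scale for MAP3K8 and -1.17 for IKBKE, and these 2 of the 8 genes passed 1.5-fold on this interaction, against 9.82% of all genes lower and 10.7% higher. MAP3K8 kept a log2 difference of 3.05 with TSA, beside 4.42 without it, and IKBKE kept 0.68 beside 1.86. Each rests on an array where the gene was not detected, Con for MAP3K8 and Con_TSA for IKBKE, and with Con set to its lowest detected level the difference of MAP3K8 without TSA was 4.08. With the deposited values the interactions were -0.54 for MAP3K8, under 1.5-fold, and -0.64 for IKBKE, past it. The interaction was below 0 for all 8 genes and for 43.9% of all genes, but for 6 of the 8 and 16.2% of all genes with median scaling, where the median of all genes was 0.44 and all 8 lay below it. It was below 0 for 94.2% of the 865 genes that IL1 had at a higher level than Con, which were chosen on arrays that enter the interaction.

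**Figure D3:**
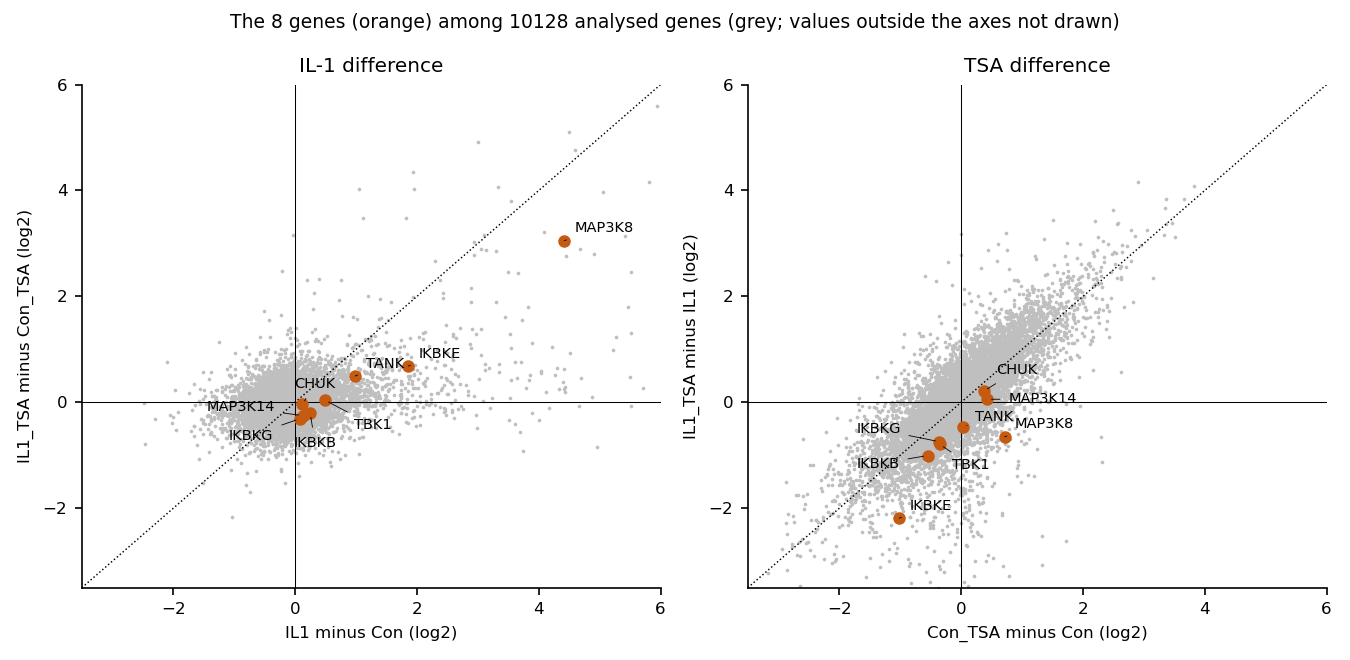
Each point is 1 of the 10128 analysed genes (grey) or 1 of the 8 genes described (orange). The left panel plots the log2 IL-1 difference with TSA (vertical) against that without TSA (horizontal), the right panel plots the log2 TSA difference with IL-1 (vertical) against that without (horizontal), the dotted line marks equal values, and points outside the axes are not drawn. MAP3K8 is at 3.05 against 4.42 on the left, below the line, and IKBKE is the lowest of the 8 on the right, at -2.19 against -1.02.

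Other genes were ranked by how closely their pattern over the 4 arrays followed that of a member, as the Euclidean distance between levels after each gene's mean was subtracted, for the 3 members whose levels spanned at least 1. Nearest to MAP3K8 were C11orf96 (distance 0.42), the mitochondrial superoxide dismutase SOD2 (0.62), the ribonuclease ZC3H12A (0.79), the chemokine CCL5 (0.80) and the deubiquitinase TNFAIP3 (0.84). SOD2 had levels of 11.35 in IL1_TSA, 12.74 in IL1, 8.58 in Con_TSA and 8.30 in Con. Nearest to IKBKE were the guanylate-binding protein GBP3 (0.23), TNIP1 (0.33), which binds TNFAIP3, SHFL (0.34), CYB5R2 (0.34) and the cytidine deaminase APOBEC3F (0.35). GBP3 had levels of 6.61 in IL1_TSA, 8.52 in IL1, 5.69 in Con_TSA and 6.69 in Con, and like IKBKE was undetected in Con_TSA alone. IKBKB, with a smaller span, lay nearest to BBX, the gap junction gene GJA1, APH1A, RAB1B and CNOT6L, at distances of 0.05 to 0.09. The distances are a description over 4 arrays and in part rest on levels below detection, since CYB5R2 was detected on 1 array, CCL5 and CNOT6L on 2 and TNFAIP3 on 3.

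The genes acting around these kinases were counted in 8 lists. Of all analysed genes, 8.54% were higher and 7.93% lower in IL1 than in Con, and 21.2% were higher and 18.2% lower in IL1_TSA than in IL1. In Con_TSA against Con 16.3% were higher and 16.4% lower, and in IL1_TSA against Con_TSA 4.2% were higher and 2.75% lower. Of 8 IKK substrates and NF-κB subunits analysed, 7 were higher in IL1 than in Con, 3 were lower and 1 higher in IL1_TSA than in IL1, and 6 were higher in IL1_TSA than in Con_TSA. With the deposited values these counts were 4 higher, 2 lower and 0 higher, and 2 higher. REL, the 1 higher in IL1_TSA than in IL1 and also 1 of the 6, is given no fold. It was not detected in IL1 or Con_TSA. Its IL1_TSA level of 6.55 lay below the lowest detected levels of those arrays, 6.73 in IL1 and 6.63 in Con_TSA. The median differences of the 8 genes in these comparisons were 1.66, -0.56 and 1.41 on the log2 scale. In Con_TSA against Con 3 of the 8 were higher and 2 lower, and 0 higher and 2 lower with the deposited values. NFKBIA, which encodes IκBα, was 8.04-fold higher in IL1 than in Con and 6.06-fold lower in Con_TSA than in Con. It was 1.62-fold lower in IL1_TSA than in IL1 and 30.1-fold higher in IL1_TSA than in Con_TSA. NFKB1 encodes the p105 precursor that holds MAP3K8 inactive. It was 3.55-fold higher in IL1 than in Con and 4.64-fold lower in Con_TSA than in Con. Between the TSA arrays it was 11.2-fold higher in IL1_TSA. Of the 5 genes of the MAP3K8 axis analysed, NFKB1 included, none was past 1.5-fold in IL1_TSA against IL1. The MEK gene MAP2K1, a substrate of MAP3K8, was 1.58-fold higher in IL1 than in Con. TNIP2, which binds p105 and MAP3K8, was at least 1.60-fold lower in IL1, where it was not detected, but its log2 difference was -0.08 with the deposited values.

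Of 10 adaptors and substrates of TBK1 and IKKε analysed, 3 were higher and 0 lower in IL1 than in Con, beside 8.54% of all genes higher. In both IL1_TSA against IL1 and Con_TSA against Con, 3 were lower and 0 higher, beside 18.2% and 16.4% of all genes lower. The deposited values gave 2 higher with IL-1, 2 lower in IL1_TSA than in IL1 and 1 lower in Con_TSA than in Con. The adaptor TICAM1 (TRIF) was 2.57-fold higher in IL1 than in Con and, between the TSA arrays, 2.67-fold higher in IL1_TSA. STING1, the sensor of cyclic dinucleotides that recruits TBK1, was 2.89-fold lower in IL1_TSA than in IL1 and 2.39-fold lower in Con_TSA than in Con. AZI2 (NAP1), an adaptor related to TANK in function, was 1.78-fold higher in IL1 than in Con, 0.51 on the log2 scale and so under 1.5-fold with the deposited values, and 2.88-fold lower in IL1_TSA than in IL1. All 8 genes listed as targets of IRF3 and interferon were higher in IL1 than in Con and all 8 were lower in IL1_TSA than in IL1, with medians of 5.49 and -3.73. With the deposited values 7 were higher and 6 lower. IFNB1, which encodes interferon β, was bounded at 1.10-fold in the first comparison and 1.30-fold in the second, both under the threshold. Between the TSA arrays 4 of these 8 targets were higher in IL1_TSA and 0 lower, beside 4.2% of all genes higher. CXCL10 was at least 76.07-fold higher there, while IFIT2 was bounded at 1.48-fold, under the threshold. In Con_TSA against Con 3 were higher, 1 of them (OASL) without a fold, and 2 lower. The deposited values gave 1 higher between the TSA arrays, and 0 higher and 1 lower in Con_TSA against Con.

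**Figure D4:**
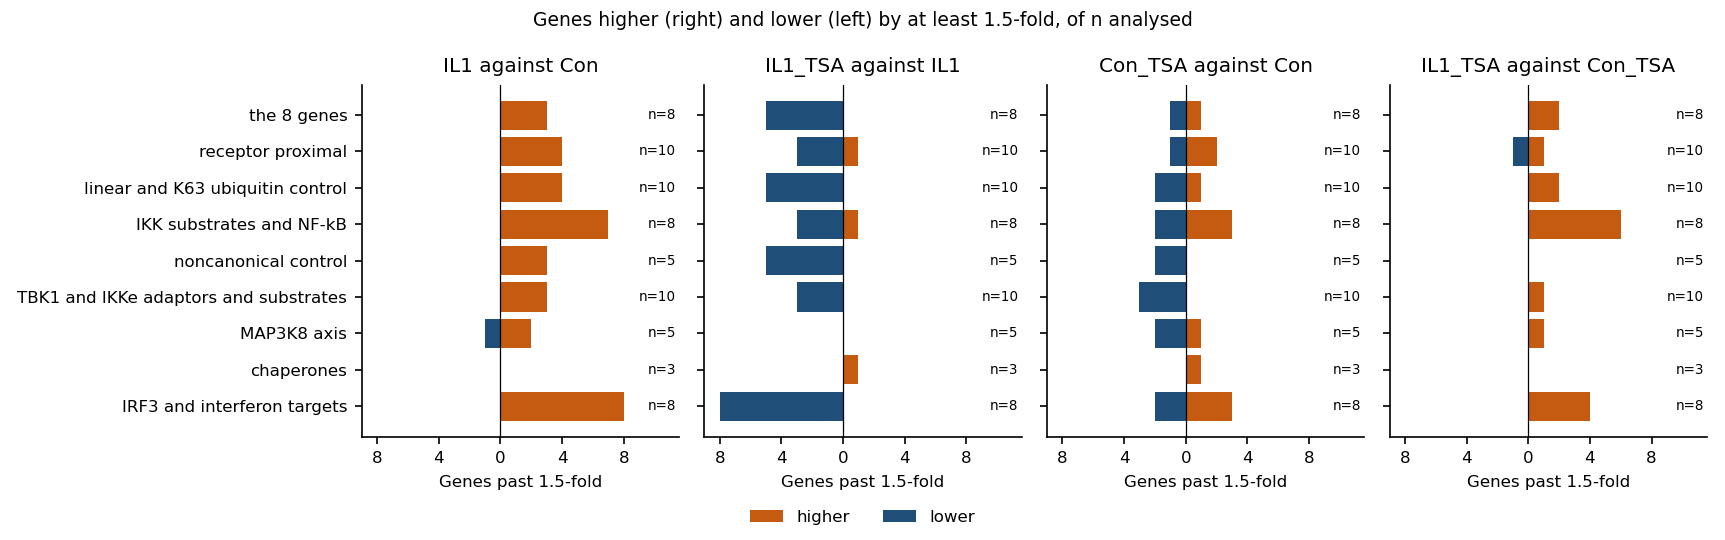
Number of genes at least 1.5-fold higher (orange, right) and at least 1.5-fold lower (blue, left) in each comparison, for the 8 genes described and the 8 lists of genes around them, with the number analysed (n) beside each row. The interferon targets stand at 8 of 8 higher in IL1 against Con and 8 of 8 lower in IL1_TSA against IL1, beside 3 higher and 5 lower of the 8 genes described.

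The 5 genes of the noncanonical pathway analysed were regulators, receptors and the ligand TNFSF13B (BAFF). Of the 5, 3 were higher in IL1 than in Con, beside 8.54% of all genes. All 5 were lower in IL1_TSA than in IL1 and 2 in Con_TSA than in Con, beside 18.2% and 16.4% of all genes lower. With the deposited values 2 were higher, 3 lower and 2 lower in these comparisons. TNFSF13B, undetected in Con and IL1_TSA, had the largest difference of the 5 with IL-1, an increase bounded at 17.5-fold. Its decrease when TSA preceded IL-1, bounded at 20.6-fold, was also the largest. With the deposited values its log2 differences were 1.96 and -1.96. The receptor of TWEAK, TNFRSF12A, was 2.96-fold lower in IL1_TSA than in IL1 and 3.88-fold lower in Con_TSA than in Con, and the lymphotoxin β receptor LTBR was 2.28-fold lower on the same Con_TSA array. MAP3K14 itself, which these receptors act through, could not be followed because it lay at the limit of detection on all 4 arrays. Of 10 receptor-proximal genes, 4 were higher in IL1 than in Con, and 3 were lower and 1 higher in IL1_TSA than in IL1, beside 8.54% of all genes higher in the first comparison and 18.2% lower and 21.2% higher in the second. Of 10 genes of ubiquitin control 4 were higher with IL-1 and 5 lower in IL1_TSA than in IL1. The deposited values gave 2 higher with IL-1 and 2 lower in IL1_TSA than in IL1 in each of these 2 lists. They gave 0 higher in IL1_TSA than in IL1 in both. TAB3, the 1 receptor-proximal gene higher in IL1_TSA than in IL1, is given no fold. It was not detected in IL1, and its IL1_TSA level of 6.55 lay below the lowest detected level in IL1, 6.73. Of the chaperone genes for these kinases, CDC37, HSP90AA1 and HSP90AB1, HSP90AA1 was higher with TSA, by 1.52-fold in IL1_TSA against IL1 and by 1.75-fold in Con_TSA against Con, with log2 differences of 0.32 and 0.31 with the deposited values, under 1.5-fold. HSP90AB1 was 1.47-fold higher in IL1_TSA than in IL1, inside the threshold, but its log2 difference with the deposited values was 0.685, past 1.5-fold.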

How the data were processed

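Total RNA of SW1353 cells was hybridised to Illumina whole-genome arrays, 1 array for each of 4 conditions, grouped by their labels. The authors deposited unnormalised probe intensity values. Beside each, the authors deposited a detection p-value, which ranks a signal among those of negative control probes. The authors also deposited log2 values made with lumi (variance stabilising transformation and robust spline normalisation) of unstated version. The methods name a Human HT-12 V4 array, whereas the annotation used belongs to another human Illumina design. It lists 27578 of 48784 probes, 27565 with 1 gene, and probes it does not list were not named.

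Intensities were background corrected and quantile normalised with neqc (limma 3.58.1, R 4.3.3, offset 16), and probes were kept if detected (p-value under 0.01) on any array. Kept probes of a gene were averaged. Genes were counted past 1.5-fold, the fold threshold of the study, if the brighter array detected them. If the dimmer array did not, its level was raised to the lowest level of any probe detected there, unless already above it, and the fold is written "at least". No fold is given where the brighter array did not detect the gene or its level was not above that raised level. The SD per probe came from deviations of probes from their gene's mean difference. The counting was tested on simulated data in which every probe was set as detected and the planted differences were well past the threshold. That test does not cover the detection rule or differences near the threshold. Precision is limited by having so few arrays. Members, gene lists and settings were chosen with earlier results of these data known. All 8 members were named, with 5 nearest genes for each member spanning at least 1 on the log2 scale, and up to 3 genes past 1.5-fold per list and comparison. The interaction of the 2 treatments is a difference of differences, without a test. The legends of the study name a longer IL-1 time than the labels, which were followed. Alternatives were the deposited values, no background correction, median scaling, other filters, the brightest probe and a 2-fold threshold.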

Additional observations from a re-analysis of the deposited data

Results flagged for a closer look

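Differences in opposite directions under the same treatment were found for 6 of the 8 genes, each on single arrays, and none was tested. The share of all genes with such a change of direction was not counted, so 6 of 8 cannot be called unusual. The IL-1 difference was positive without TSA and negative with it for CHUK, IKBKB, IKBKG and MAP3K14, with a change between both of -0.16, -0.45, -0.39 and -0.37 on the log2 scale, and no single difference among them was past 1.5-fold. With median scaling the IL-1 difference with TSA was positive for all 4. MAP3K14 was detected in neither IL1 nor Con, and with the deposited values its IL-1 difference with TSA was 0.01. The TSA difference was negative with IL-1 and positive without it for TANK (-0.46 and 0.03, a change of -0.49) and for MAP3K8 (-0.65 and 0.71, a change of -1.36). For TANK the difference without IL-1 was -0.09 with median scaling and -0.05 with no filter on dim probes. MAP3K8 passed 1.5-fold both ways, but neither way with the deposited values, at -0.48 with IL-1 and 0.06 without it, or with median scaling, at -0.46 with IL-1 and 0.56 without it. Without background correction the difference without IL-1 was 0.38, under 1.5-fold.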

How the results depend on the processing

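Of the 12 differences of single genes past 1.5-fold, all kept their direction under the 6 alternative ways of processing and 5 stayed past 1.5-fold under all of them: MAP3K8 in both IL-1 comparisons, IKBKE in IL1 against Con and in IL1_TSA against IL1, and TBK1 in IL1_TSA against IL1. Each of these genes has a single annotated probe, so only the deposited values, no background correction and median scaling could change its values. Probes that the annotation does not list could not be used as a check. Members past 1.5-fold in IL1_TSA against IL1 numbered 5, but 2 with the deposited values, 3 with median scaling and 2 at a 2-fold threshold. In Con_TSA against Con they numbered 2, but 0 with the deposited values, 1 without background correction and 1 at 2-fold. With median scaling they numbered 2, with IKBKB in place of MAP3K8. In IL1_TSA against Con_TSA they numbered 2, but 1 under the deposited values, no background correction and 2-fold and 3 with median scaling, and in IL1 against Con they numbered 3, with 2 to 3 in every setting. Raising undetected probes to the lowest detected level, chosen after seeing the data, gave 1 in Con_TSA against Con, without MAP3K8, and 2 in IL1 against Con, without TANK. The cause was not tested, except that a higher threshold can only remove calls. Over all genes, the deposited values gave 339 higher and 86 lower in IL1 against Con (865 and 803 in the main processing), 644 and 586 in IL1_TSA against IL1 (2148 and 1847), 508 and 402 in Con_TSA against Con (1652 and 1664), and 89 and 11 in IL1_TSA against Con_TSA (425 and 279). Without background correction the counts were 660 and 368 in IL1 against Con and 196 and 53 in IL1_TSA against Con_TSA. Median scaling moved the median of all genes to 0.22 in IL1_TSA against IL1, -0.19 in Con_TSA against Con and 0.35 in IL1_TSA against Con_TSA, where it gave 2072 higher and 43 lower. The share of calls that were higher was then 69.8% in IL1_TSA against IL1 (53.8% in the main processing) and 32.4% in Con_TSA against Con (49.8%). At 2-fold the counts higher and lower were 496 and 178, 1063 and 950, 692 and 724, and 143 and 22 in the same order of comparisons. No paired analysis was possible because each condition has a single array. Signal over background limits MAP3K14 on all arrays, MAP3K8 in Con, IKBKE in Con_TSA and the dimmer TANK probe in Con_TSA and Con.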
